A study of Caenorhabditis elegans with 2 samples.

Results

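Chromosome IV of the nematode Caenorhabditis elegans carries most of the worm's genes for piRNAs, the small RNAs bound by Piwi proteins, in a left and a right cluster. Candidate binding regions of the Snail-family zinc-finger protein SNAI-1, the product of K02D7.2, were examined inside these clusters. A region counted as a cluster region where its summit in the authors' pooled ce11 list lay on chromosome IV between 4500000 and 7000000 (left cluster) or between 13500000 and 17200000 (right cluster). There were 1204 such regions, 505 in the left and 699 in the right cluster, of 4507 on chromosome IV and 30000 in all. The other 3303 regions of chromosome IV are called the rest of the chromosome. By its label the pooled list holds peaks and background, so a region in it is a candidate and not an established binding site. The deposited −log10 q-value was 2.47 at the strongest cluster region. It was 0.155 and 0.0749 at cluster regions that ranked 8351 and 16532 of the 30000. The chromatin came from whole, mixed-sex late embryos of the strain OP698, collected 5 hours after synchronization by bleaching. The strain carries unc-119(tm4063) on chromosome III and the integrated transgene wgIs698, which makes K02D7.2 with a C-terminal tag. The tag is eGFP in one label and GFP-FLAG in another, and the precipitation used an antibody against GFP. The series has 1 group with 2 biological replicates and no second condition, so comparisons run between parts of the chromosome. Values come from the pooled list unless a replicate is named, and the lists of single replicates are given for the main ones. The region lists hold no expression values, so the labelled stage was not checked against marker genes.

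piRNAs of C. elegans bind the Piwi protein PRG-1 and guide the silencing of transposons and other foreign sequence in the germ line. Most are transcribed by RNA polymerase II from their own short genes, many of them with the Ruby motif in a small promoter upstream of the piRNA. The proteins PRDE-1, SNPC-4, TOFU-4 and TOFU-5 act at these clusters. Most cells of a late embryo are somatic, with a pair of primordial germ cells. In chromatin from whole embryos, a site bound in few cells and a site bound weakly in many cells cannot be told apart.

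The annotation shows how far the clusters are made of piRNA genes. They hold 14204 of the 15363 genes of biotype piRNA, 92.5% of all and 96.5% of the 14714 on chromosome IV. The left cluster has 1126 and the right cluster 3078 piRNA genes per Mb, against 45.2 per Mb in the rest of the chromosome. Of all bases, 31.9% in the clusters and 0.876% in the rest of the chromosome lie within 100 bp of a piRNA gene. The clusters also have fewer protein-coding genes, 151 per Mb against 207 per Mb in the rest, and a lower GC content, 33.0% against 35.5%. The left cluster has 192 and the right cluster 124 protein-coding genes per Mb. The rest has 166 per Mb before the left cluster, 234 between the clusters and 252 after the right cluster.

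A few sequences show what the results below turn on. The first holds the piRNA gene nearest to a region that passed the authors' filter, 21ur-5229 (capitals), with the lysine tRNA gene B0350.t1 at its right end, chrIV:5967089-5967232, plus strand. The next are the piRNA genes 21ur-7477, chrIV:5957012-5957092, and 21ur-2834, chrIV:14869603-14869683, both on the minus strand and each with the 60 bases upstream of it. Capitals there mark the Ruby motif CTGTTTCA, and both were chosen after their values were seen because they carry it beside comparatively strong regions. The last is the summit and 50 bases to each side in the strongest cluster region, at the microRNA gene mir-52, chrIV:14034022-14034122, plus strand. All are RefSeq sequence of WBcel235, the assembly behind ce11.
21ur-5229 and B0350.t1: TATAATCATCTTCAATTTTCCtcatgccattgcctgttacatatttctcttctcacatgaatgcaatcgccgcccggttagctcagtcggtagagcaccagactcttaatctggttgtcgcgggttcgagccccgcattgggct
21ur-7477: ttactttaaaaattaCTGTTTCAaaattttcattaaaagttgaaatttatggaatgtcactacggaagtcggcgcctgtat
21ur-2834: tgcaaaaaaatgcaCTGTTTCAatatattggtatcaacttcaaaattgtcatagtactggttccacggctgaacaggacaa
mir-52 summit: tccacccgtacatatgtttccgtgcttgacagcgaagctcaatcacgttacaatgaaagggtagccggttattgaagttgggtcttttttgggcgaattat

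The strongest cluster regions lay at tRNA genes, a microRNA gene and promoters of protein-coding genes, and 1 of them was beside a piRNA gene. Strength is judged from the list of peaks that the authors kept after an irreproducible discovery rate (IDR) filter, which compares how regions rank in the replicates. It held 19 of the 1204 cluster regions (1.58%, exact 95% interval 0.953 to 2.45%), against 42 of the 3303 regions in the rest of chromosome IV (1.27%) and 1.65% of all 30000 regions. The share in the clusters was thus close to both backgrounds. The left cluster had 8 such peaks and the right cluster 11. Their median signal, a value the authors gave each region in an unstated unit, was 142.7 in the clusters and 168.1 in the rest of the chromosome. Of the 19 peaks, 7 lay within 100 bp of a tRNA gene, 8 others had their summit in a promoter window (1000 bp upstream to 200 bp downstream of a transcript start), and 4 had neither. The share at tRNA genes was 36.8% of these 19 (16.3 to 61.6%), against 10 of the 42 peaks in the rest (23.8%, 12.1 to 39.5%). Promoter windows, with or without a tRNA gene, held 10 of the 19 (28.9 to 75.6%) and 21 of the 42 (34.2 to 65.8%). The intervals overlapped for both classes. Small nucleolar RNA genes were within 100 bp of 0 of the 19 and 10 of the 42. None of the 19 summits lay inside a piRNA gene, 1 lay within 100 bp of one and 6 within 1000 bp. The median distance was 1795 bp and the longest 17700 bp.

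The strongest of all was in the right cluster at mir-52, a microRNA of the mir-51 family. Its signal was 374.4 in the pooled list, 242.6 in replicate 1 and 140.3 in replicate 2, and it ranked 26, 12 and 58 in these lists of 30000 regions. The nearest piRNA gene, 21ur-2841, was 1129 bp away.

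The tRNA genes were those for lysine (B0350.t1, signal 204.2), glycine (Y43D4A.t2, 160.7, and Y57G11B.t1, 151.4), histidine (Y7A9D.t1, 125.1), alanine (Y65A5A.t1, 123.6), glutamine (Y4C6B.t1, 123.5) and leucine (C43G2.t1, 115.6). They encode the adaptors that bring amino acids to the ribosome and are read by RNA polymerase III from promoters inside the gene. The B-box core GTTCGA, searched on both strands within 100 bp of the summit, was present at 5 of these 7 peaks and at 1 of the other 12, in an intron of Y57G11C.22. It was within that distance of 12 of the 20 cluster summits at tRNA genes (60%, 36.1 to 80.9%), 72 of the 1184 cluster summits away from them (6.08%, 4.79 to 7.60%) and 6.57% of all cluster bases. The B box is part of the tRNA gene, so a higher share at summits chosen for lying near such genes follows from that choice. The core at tRNA genes without a region was not counted. The peak at B0350.t1 (chrIV:5966939-5967394) ranked 131 in replicate 1 and 157 in replicate 2, with its summit inside the tRNA gene and 58 bp from 21ur-5229. It was the 1 peak that passed the filter beside a piRNA gene, and the first sequence above shows both genes in the same stretch. Y57G11B.t1 rested more on replicate 2, at ranks 870 and 189 in replicates 1 and 2. C43G2.t1 rested more on replicate 1, at ranks 410 and 1630.

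Promoters made up the next group. The intergenic stretch between snr-1, which encodes an Sm protein of the spliceosomal particles, and snx-13, a sorting nexin gene, had a signal of 307.8 at ranks 44 and 66. The promoter of usp-4, of the ubiquitin-specific protease gene class, had 220.1, and the stretch shared by Y17G9B.5 and rpl-20, the gene of a large-subunit ribosomal protein, had 205.4. The stretch between lsy-13 and mel-46, a DEAD-box helicase gene, had 164.9, and that between Y116A8C.9 and arf-6, a small GTPase gene of the ARF family, had 161.2. These 5 regions ranked between 44 and 298 in replicate 1 and between 66 and 432 in replicate 2. The peaks in the promoter windows of W03F8.4 (139.2), F41H10.3 (128.0) and Y65A5A.2 (125.0) were weaker. The first of them also lay just past the 3′ end of the laminin beta gene lam-1. The summits at F41H10.3 and Y65A5A.2 were also in introns of these genes. Apart from mir-52, the peaks with neither a tRNA gene nor a promoter were in introns of Y57G11C.22 (142.7) and C02B10.3 (126.6) and past the 3′ end of Y45F10B.13 (125.2). The last regions of the 10 strongest of the left cluster did not pass the filter. They were in the promoter windows of sqd-1, an RNA-binding protein gene (103.7), and dpf-5, a dipeptidyl peptidase family gene (98.7). The summit at dpf-5 was also in an intron of that gene.

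**Figure D1:**
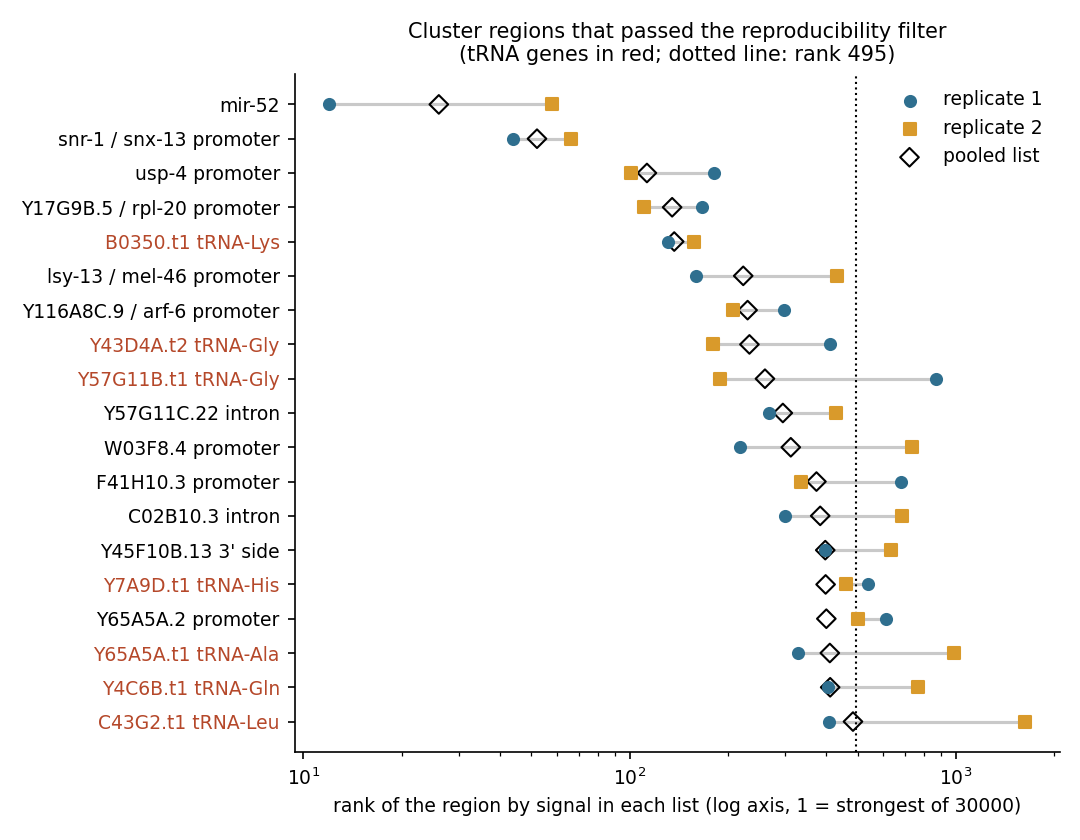
Rank by signal (log axis, 1 is the strongest of 30000) of the 19 cluster regions that passed the authors' filter, in replicate 1 (circles), replicate 2 (squares) and the pooled list (diamonds), from the strongest pooled signal at the top. Of the 19, 15 were among the 495 strongest of replicate 1 (dotted line), 12 among those of replicate 2 and 9 among both.

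At the piRNA genes themselves, summits were fewer than the share of bases near such genes. Of the 1204 cluster regions, 224 had their summit within 100 bp of a piRNA gene (18.6%, 16.4 to 20.9%), against 31.9% of all cluster bases. In the list of replicate 1 the count was 249 of 1317 (18.9%) and in that of replicate 2 it was 269 of 1304 (20.6%), so both replicates were below the share of bases. Inside a piRNA gene lay 21 summits (1.74%), against 3.75% of bases. The left cluster had 64 of 505 (12.7%) near a piRNA gene, against 18.4% of its bases, with 12.3% and 11.7% in replicates 1 and 2. The right cluster had 160 of 699 (22.9%), against 41.0%, with 23.9% and 26.9%. In the rest of chromosome IV, 15 of 3303 summits were that near (0.454%, 0.254 to 0.748%), against 0.876% of bases. Replicate 1 had 0.489% there and replicate 2 had 0.673% (0.422 to 1.02%), an interval that includes the share of bases. The rest was not uniform, since 1822 of its regions lay before the left cluster, where 31 of its 510 piRNA genes are. That stretch had 0.220% of summits near a piRNA gene against 0.151% of bases, the stretch between the clusters 0.426% against 0.990% (1.10% in replicate 2), and the stretch after the right cluster 6.76% against 9.45%. The interval of the pooled share included the share of bases in the first and the last of these stretches, and its upper end was 0.926% between the clusters. The median distance from a summit to a piRNA gene was 512 bp in the clusters and 29740 bp in the rest of the chromosome. For all bases of these areas it was 239 bp and 18119 bp.

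**Figure D2:**
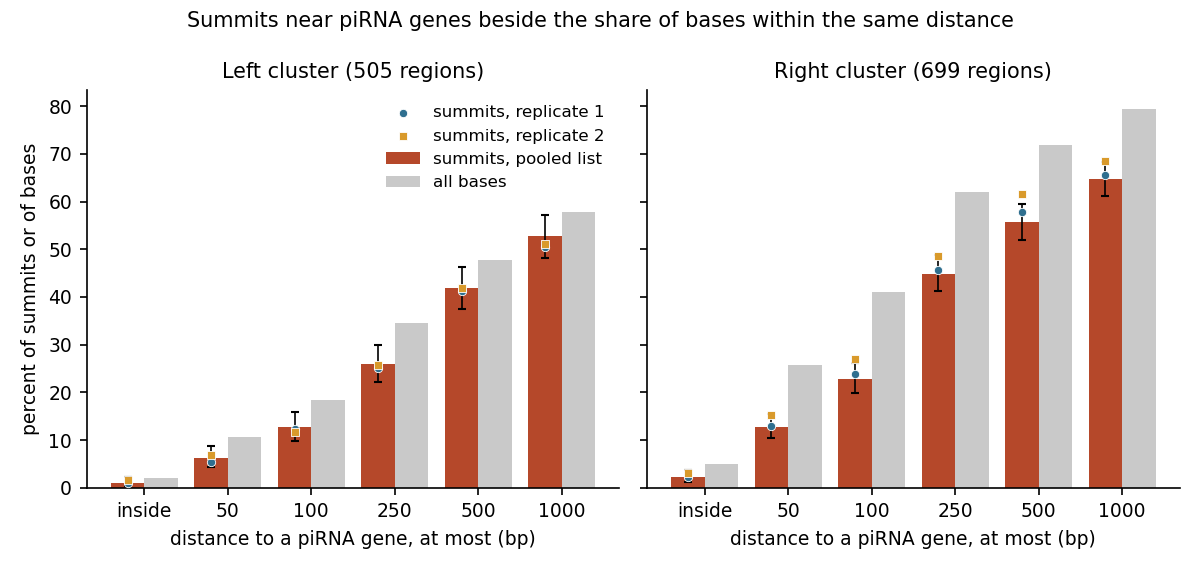
Percent of summits (red bars, pooled list, with exact 95% binomial intervals; points, each replicate) and of all bases (grey bars) inside a piRNA gene or within 50 to 1000 bp of one, in the left and the right cluster. Within 100 bp, summits reached 12.7% against 18.4% of bases in the left cluster and 22.9% against 41.0% in the right cluster.

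Base composition and annotation moved with this difference. piRNA genes sit in AT-rich sequence, while the windows of 50 bases to each side of cluster summits had a median GC content of 36.6%, against 31.7% for windows at all cluster bases. In windows of 20 to 25% GC, 36 of 96 summits lay near a piRNA gene (37.5%, 27.8 to 48.0%), against 54.5% of bases. At 25 to 30% GC the share was 33.9% (27.2 to 41.0%), against 45.6%. From 30% GC up, the pooled interval included the share of bases in every group plotted below. At 30 to 35% GC the share was 25.8% (20.2 to 32.1%), against 30.7%, with 22.6% in replicate 1 and 30.4% in replicate 2. In windows of 40 to 45% GC, 22 of 191 did (11.5%, 7.36 to 16.9%), against 9.65% of bases, with 11.7% in replicate 1 and 7.22% in replicate 2. The interval includes the share of bases, and the replicates lay on either side of it. When the cluster bases were weighted to the GC content of the summits, a comparison chosen after the data were seen, 23.5% of them lay within 100 bp of a piRNA gene. The 18.6% of summits, with its interval reaching 20.9%, was below this value too. The weighted shares for the lists of replicates 1 and 2 were 24.1% and 25.7%, against summit shares of 18.9% and 20.6%. By annotation, 24.5% of intergenic summits and 17.4% of intronic summits were near a piRNA gene, against 38.4% and 34.7% of such bases. In coding exons the share was 10.6% of summits, against 10.9% of bases.

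The share near piRNA genes varied with the signal of the region. Cluster regions were split by signal into 4 groups of equal size, and from the strongest to the weakest group the share near a piRNA gene was 8.31% (5.45 to 12%), 19.6% (15.3 to 24.5%), 19.9% (15.6 to 24.9%) and 26.6% (21.7 to 31.9%). Replicate 1 gave 9.39%, 18.2%, 25.2% and 22.8%, and replicate 2 gave 13.8%, 17.2%, 27.0% and 24.5%. In all 3 lists the strongest group had the lowest share, while the order of the weaker groups differed between lists. In replicate 2 the interval of the strongest group (10.2 to 18.0%) overlapped that of the next (13.2 to 21.7%), and in the other 2 lists it did not. The median GC content of the summit windows went down over the same groups of the pooled list, with 41.6%, 37.6%, 36.6% and 33.7%, and its part in this order was not tested. The 224 regions near a piRNA gene had a median signal of 40.9 (interquartile range 36.1 to 47.9), against 44.5 (38.2 to 55.3) for the other 980 cluster regions. In the IDR list were 1 of these 224 (0.446%) and 18 of the other 980 (1.84%). The cluster peaks of that list ranked between 26 and 484 by pooled signal, so these shares are not separate from the difference in signal.

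**Figure D3:**
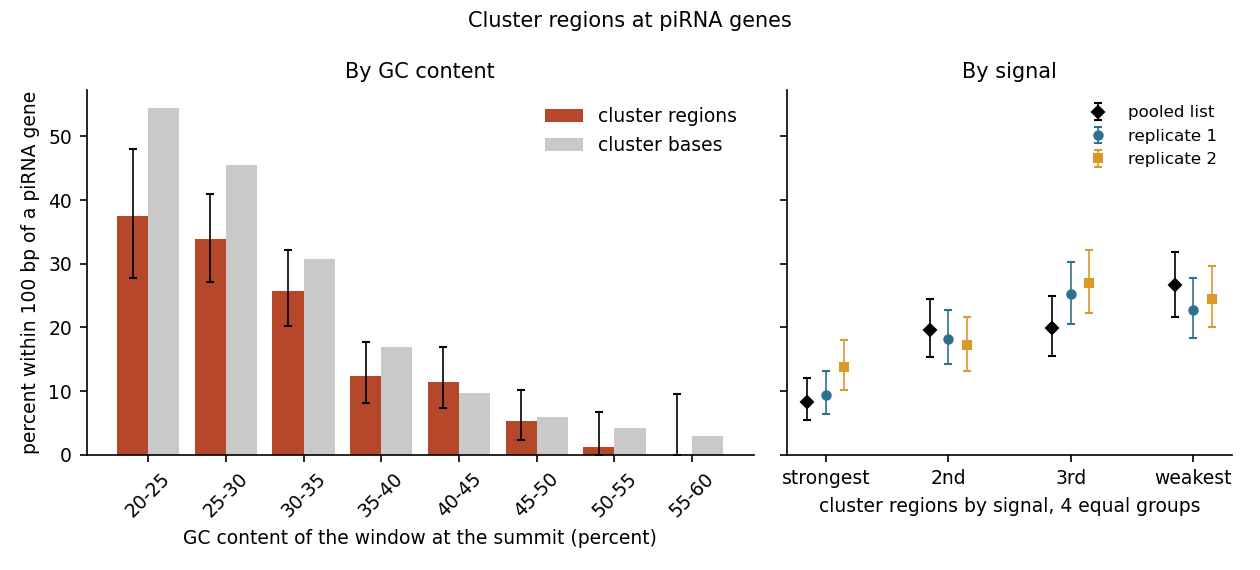
Percent of cluster regions within 100 bp of a piRNA gene, with exact 95% binomial intervals, by the GC content of the window at the summit (left; grey bars, all cluster bases of that GC content) and by 4 equal groups of signal in each list (right). The share went down with GC content for summits and bases alike, and the strongest group had the lowest share in all 3 lists (8.31, 9.39 and 13.8%).

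Around the 5′ ends of the 14204 piRNA genes, summits were fewer than in the sequence farther out. The pooled list had 10.8 summits per 1000 genes in each 100-bp bin within 100 bp of the 5′ end, against 15.7 per bin at 500 to 1000 bp, a ratio of 0.688. The ratio was 0.662 in replicate 1 and 0.733 in replicate 2. The 41 tRNA genes of the clusters showed the opposite form, with 232 summits per 1000 genes and bin within 100 bp against 29.3 farther out, a ratio of 7.92. It was 6.33 in replicate 1 and 8.0 in replicate 2. Neighbouring piRNA genes can share a summit, so these genes are not independent of each other.

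**Figure D4:**
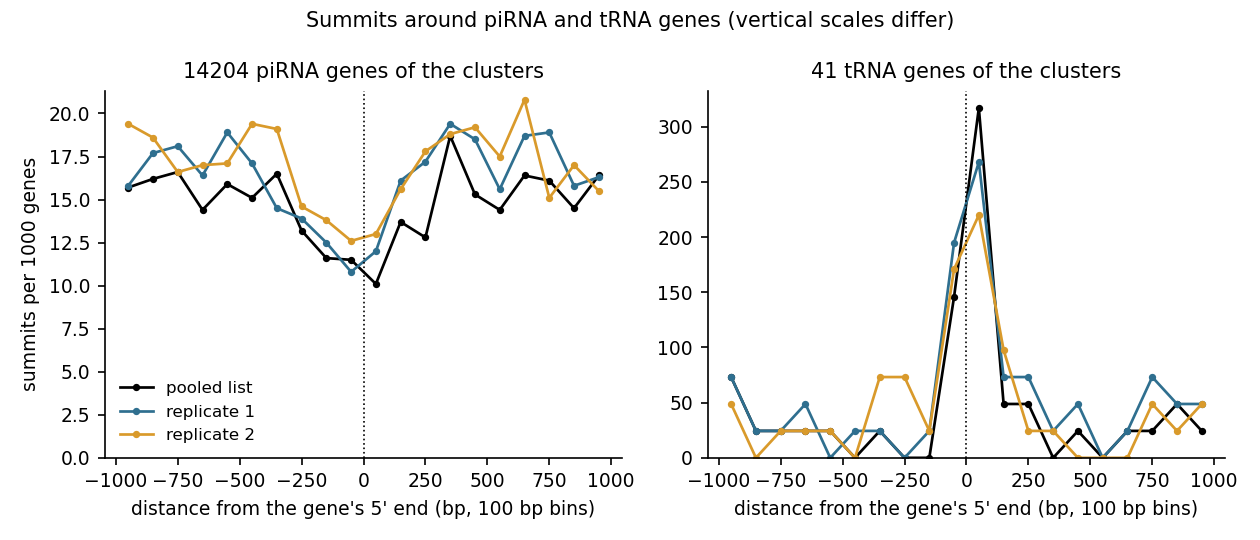
Summits per 1000 genes in 100-bp bins around the 5′ end of the 14204 piRNA genes (left) and the 41 tRNA genes (right) of the clusters, in the pooled list and in each replicate. Over the 100 bp to either side the ratio to the bins at 500 to 1000 bp was 0.688 for piRNA genes and 7.92 for tRNA genes in the pooled list, and the vertical scales differ.

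Counted by gene, 344 of the 14204 cluster piRNA genes had a pooled summit within 100 bp (2.42%, 2.18 to 2.69%), and so did 16 of the 510 in the rest of the chromosome (3.14%, 1.80 to 5.04%). Replicate 1 had a summit at 366 cluster piRNA genes (2.58%) and replicate 2 at 405 (2.85%). Both had one at 47, which is 12.8% of the first and 11.6% of the second. In the rest of the chromosome the replicates had one at 17 and 23 of the 510 piRNA genes and both at 2, or 11.8% and 8.70%. The tRNA genes of the clusters had a pooled summit at 20 of 41 (48.8%). Each replicate also had one at 20 of them, and both at 17, or 85.0% of each. For pseudogenes of the clusters the shared part was 38.5% of the genes found in replicate 1 and 32.3% of those in replicate 2, and for protein-coding genes it was 70.3% and 65.6%. Replicates 1 and 2 had a summit at 14.9% and 17.7% of the pseudogenes, and at 39.1% and 41.9% of the protein-coding genes. A class with a larger part of its genes found in each list also shares more of them without any agreement of the lists. Longer genes can be matched by different summits in each list. For both reasons the shared parts are not on an equal footing between gene classes and give no order among them.

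The Ruby motif, searched by its exact letters, did not mark the piRNA genes that had a region. Searched as CTGTTTCA in the 60 bases upstream on the strand of the gene, it was present at 34.8% of cluster piRNA genes, at a median of 46 bp before the piRNA. Of the 344 genes with a pooled region, 120 carried it (34.9%, 29.9 to 40.2%), and of the 13860 without one 34.8% did. Searched on both strands within 50 bases of the summit, it was present at 51 of the 1204 cluster summits (4.24%, 3.17 to 5.53%), against 7.36% of windows at all cluster bases and 5.03% of windows weighted to the GC content of the summits. The interval includes the weighted value. Replicates 1 and 2 had 4.02% and 4.52%. By cluster, the motif was at 4.36% of left summits (2.75 to 6.52%), against 4.98% of windows at the bases there, which the interval includes. It was at 4.15% of right summits (2.80 to 5.90%), against 8.97%. In windows centred 400 bp to each side of the cluster summits the share was 6.48%. Among the 224 summits near a piRNA gene, 42 carried it (18.8%), against 18.9% of bases that near. It was at 0 of the 19 peaks that passed the filter, and at 10 of 3303 summits in the rest of the chromosome (0.303%, against 0.760% of windows there). A match to these letters does not show that a protein binds there, and its absence from a window shows only that the letters are not in it. Upstream of cluster piRNA genes, the shorter core TGTTTCA was at 48.3% of those with a pooled region and 48.5% of those without. Inexact matches were not searched.

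The strongest regions near piRNA genes were weak beside the peaks described above. After the peak at 21ur-5229 and B0350.t1, the next signal was 82.8 at 21ur-8555, inside an intron of the ankyrin gene unc-44. Then came 78.3 at 21ur-12076, in the promoter window of talp-3. The region at 21ur-3160 (76.8) was also near a proline tRNA gene, F02H6.t1. That at 21ur-929 (72.8) had its summit in a coding exon of the receptor guanylyl cyclase gene gcy-25, and ranked 20805 in replicate 1 and 1159 in replicate 2. Regions at 21ur-7477 (67.7) and 21ur-2834 (62.3), printed above, had the Ruby motif upstream of the gene, 45 and 46 bp before the piRNA. The other regions among these 10 were at 21ur-817 (67.1) in the promoter and an intron of eps-8, an actin regulator gene, at 21ur-3081 (63.8) and at 21ur-14975 (61.5). The 9 regions after that at 21ur-5229 ranked between 1602 and 5332 in the pooled list, and none of them was in the IDR list.

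Fewer of the regions near piRNA genes were found in both replicates. Of these 224 regions, 78 overlapped a region of both replicates by at least 1 bp (34.8%, 28.6 to 41.5%), against 468 of the other 980 cluster regions (47.8%, 44.6 to 50.9%). Regions near piRNA genes were also weaker, so the shares were also compared within the 4 groups of signal. They were 76.0% against 83.3% in the strongest group, 59.3% against 53.3% and 26.7% against 27.8% in the next, and 10% against 19.0% in the weakest, with intervals that overlapped in each group. Over all regions, 546 of 1204 in the clusters (45.3%, 42.5 to 48.2%) and 1656 of 3303 in the rest of the chromosome (50.1%, 48.4 to 51.9%) were found in both replicates.

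The clusters had fewer candidate regions per Mb than the rest of chromosome IV. The pooled list had 194 regions per Mb in the clusters, 202 in the left and 189 in the right, against 292 in the rest. Replicate 1 had 212 against 290 and replicate 2 had 210 against 289, so the clusters were lower in every list. The clusters make up 35.4% of the chromosome's bases and held 26.7% of its pooled regions. The rest was itself uneven, with 405 regions per Mb before the left cluster, 216 between the clusters and 252 after the right cluster. The clusters thus lay much nearer to the stretch between them than to the left arm. Against that stretch the left cluster was not lower in every list. Replicate 1 had 228 per Mb in the left and 202 in the right cluster, against 225 between them. Replicate 2 had 216 and 207, against 225. Other chromosomes had between 243 (V) and 413 (III) per Mb. The signal per region differed little, with a median of 43.6 (interquartile range 37.6 to 53.7) in the clusters against 44.3 (37.8 to 54.7) in the rest. In the separate scales of the replicates, the medians were 26.5 against 27.1 in replicate 1 and 23.2 against 24.0 in replicate 2.

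Within the clusters, bins of 250 kb lying wholly inside the bounds held between 38 and 90 regions on the left (median 44.0) and between 27 and 71 on the right (median 42.5), against 35 to 122 in the rest (median 71.0). The bin that spans the end of the right cluster, with 71 regions and 464 piRNA genes, was left out of these ranges and of the correlations below. The left bin with most regions, 90, was the first of the cluster and had 2 piRNA genes, so it lies inside the bounds but before the piRNA genes become dense. The left bin with fewest, 38, was the last and had 112 piRNA genes. Of the bins kept, the right one with most regions, 71, had 479 piRNA genes, and the bin with fewest, 27, had 1047, the most of any bin. Across the 14 right bins the Spearman correlation of regions with piRNA genes was -0.59 (replicates -0.58 and -0.60), with protein-coding genes 0.71 (0.50 and 0.62) and with GC content 0.79 (0.53 and 0.63). Across the 10 left bins these values were 0.24 (-0.07 and 0.12), -0.13 (-0.26 and -0.62) and 0.33 (0.59 and -0.03). All bins share the same libraries, and piRNA genes, protein-coding genes and GC content vary together along the right cluster, so their parts cannot be told apart.

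**Figure D5:**
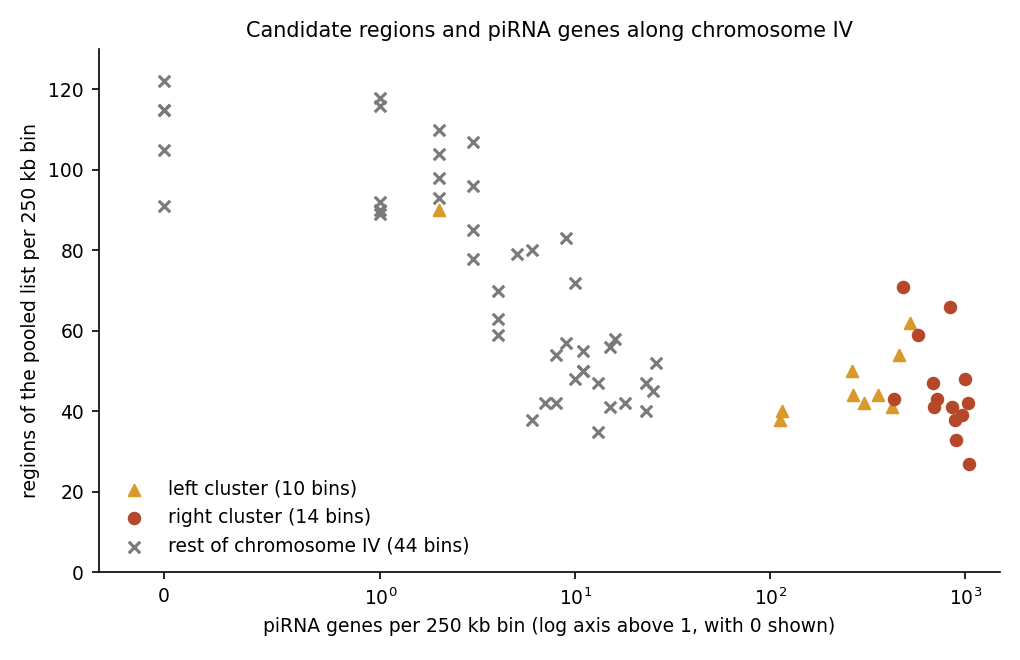
Regions of the pooled list against piRNA genes in bins of 250 kb for the left cluster (triangles), the right cluster (circles) and the rest of chromosome IV (crosses), with a log horizontal axis above 1. Cluster bins held 27 to 90 regions and bins of the rest 35 to 122, and the 1 left-cluster bin among the rest of the chromosome had 2 piRNA genes.

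The regions next to the bounds were ordinary candidates. The first inside the left cluster had a signal of 54.4, and the last outside it 40.9, both in introns of gbb-2. At the other end of the left cluster the values were 38.3 inside and 55.0 outside. For the right cluster they were 43.4 inside and 36.6 outside at its start, and 69.9 inside and 40 outside at its end. None of these 8 regions was in the IDR list.

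By gene context, cluster summits were more often intergenic, 43.0% (40.2 to 45.9%) against 36.1% (34.5 to 37.8%) in the rest of the chromosome, as were the bases, 50.6% against 34.5%. Promoter windows held 30.5% of cluster summits (27.9 to 33.2%) and 33.0% of those in the rest (31.4 to 34.6%), against 21.3% and 28.3% of bases. Coding exons held 18.1% of cluster summits and 18.4% of those in the rest (17.1 to 19.7%), against 17.0% and 25.7% of bases. The interval of the cluster share included the share of bases there, while that of the rest lay below it. tRNA genes were within 100 bp of 20 cluster summits (1.66%, 1.02 to 2.55%) and of 20 summits in the rest (0.606%, 0.370 to 0.934%), where such genes take up 0.180% and 0.0730% of bases with their 100-bp margins.

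The genes of the piRNA pathway, which lie mostly outside the clusters, were taken as a list of 31 genes, of which 29 were matched in the annotation. A pooled summit lay in the promoter window of 11 of the 29 (37.9%), against 38.3% of all protein-coding genes, a share close to the background. They were 3 of 9 genes for piRNA transcription, 4 of 12 for precursor processing and 4 of 7 for silencing downstream of piRNAs. A peak that passed the filter lay in that of 1, simr-1, against 1.55% of all protein-coding genes. simr-1 encodes a Tudor-domain protein that acts downstream of piRNAs, and its peak had a signal of 183.1 at rank 174. The next in signal were pid-3 (74.8) and tofu-1 (61.2), both needed to process piRNA precursors. The Piwi gene prg-1 had no pooled summit in its promoter window. Of the genes for proteins that act in piRNA transcription, snpc-4, tofu-4 and tofu-5 had none either, and prde-1 had 1 with a signal of 36.1.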

How the data were processed

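The authors deposited region lists in narrowPeak format for each replicate and for both pooled, each of 30000 regions and labelled as peaks and background. They also deposited a list of 495 peaks that passed an IDR filter. Per the deposited manifests, each list was made from alignments and a control alignment. The sources used here do not name the caller, the aligner, versions or the IDR threshold, and the control was not analysed here. The seventh column is the authors' signal, in an unstated unit comparable within 1 list only, and the ninth is the −log10 q-value as deposited. The tenth, the summit's offset from the start, was counted from 0 as deposited. No read counts were in these lists, so depth is unknown.

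Summits were compared with the Ensembl release 115 annotation and the RefSeq sequence of WBcel235, and 0 pooled regions ran past its end of chromosome IV. Printed coordinates count from 1. A cluster region was in the IDR list where chromosome, start, end and summit were the same. Gene context, distances, motifs, bins of 250 kb and exact (Clopper-Pearson) 95% binomial intervals were computed with Python 3.11.15, numpy 2.4.6, pandas 2.3.3 and scipy 1.17.1, and the distance and motif code was checked on simulated data. Intervals treat regions as independent and leave out biological variation. An exact two-sided sign test over 2 replicates cannot go below p = 0.5, and no test was run, so comparisons are descriptions. Shares of bases count every base of an area.

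The named regions were all cluster regions in the IDR list, the 10 strongest of each cluster, the 10 strongest near a piRNA gene, those next to each bound, and the bins with most and fewest regions. The bounds, members, gene list and named rules were chosen with earlier results of these data known. Alternatives were other bounds, distances, windows and lists, ce10 lists, and each replicate alone.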

Additional observations from a re-analysis of the deposited data

How the results depend on the processing

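Of 60 alternative settings over 7 results, 34 moved a value beyond its spread (1 SD of the replicate lists for the ratios of density, of signal and of the share near piRNA genes to that of bases; the exact 95% interval for plain shares). These 3 ratios were below 1 in all of their settings, and for plain shares no direction was evaluated. The density in the clusters was 0.664 of that in the rest of chromosome IV and 0.727 to 0.733 in single replicates, 0.639 and 0.693 with bounds moved inward and outward by 250 kb, 0.636 for regions at or above the list's median signal, 0.853 against the rest beyond 4 Mb from a chromosome end and 0.488 against the rest within 4 Mb of one. The ratio of median signals was 0.985, 0.963 to 0.977 in single replicates and 0.996 above the median signal. The share within 100 bp of a piRNA gene, 18.6%, was 22.1% and 15.6% with the bounds moved inward and outward, 13.8% above the median signal, and 1.74%, 10%, 37.0% and 49.8% inside the gene and within 50, 250 and 500 bp. Over the share of bases it was 0.584, and 0.593 to 0.647 in single replicates, 0.628 with inward bounds, 0.465, 0.510, 0.726 and 0.802 for those distances, 0.433 above the median signal, 0.792 weighted by GC content, 0.775 so weighted outside exons and 0.648 outside promoter windows. This ratio and its settings were added after the data were seen. The share in the IDR list, 1.58%, was 0.664% for the N/2 strongest IDR peaks (N is 495) and 1.07 to 1.44% in single replicates. The IDR list was made from both replicates, so the values for single replicates are not shares that passed a filter of that replicate. The Ruby motif, at 4.24%, was at 2.33% in windows of 51 bp and at 8.22% within 100 bp to each side of the summit, and its core TGTTTCA was at 7.31%. The share of piRNA genes with a region, 2.42%, was 2.58 to 2.85% in single replicates, 0.796% above the median signal, and 1.19% and 6.03% within 50 and 250 bp. No paired analysis was possible because the series has 1 group of samples. Each replicate's list holds both the clusters and the rest of the chromosome, and its own values are given in place of a test.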

Other observations

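Other gene classes of the clusters had regions as follows. Protein-coding genes had a pooled region within 100 bp of the gene or inside it at 354 of 938 in the clusters (37.7%) and at 1052 of 2343 in the rest of chromosome IV (44.9%). Small nucleolar RNA genes had one at 2 of 18 in the clusters, with 0 in the IDR list, and at 14 of 41 in the rest, with 10 in the IDR list. Genes of biotype ncRNA had one at 68 of 321 and 168 of 737, and pseudogenes at 23 of 175 and 42 of 206. The tRNA genes with an IDR peak were 7 of 41 in the clusters and 10 of 30 in the rest.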
